A study of Mus musculus with 63 samples.

Results

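The genes described here are 39 interferon-stimulated genes and genes of antigen presentation by MHC class I, taken by name from a list and read as rows of 22 RNA-seq count tables of mouse pluripotent stem cells. All 39 were found among the 47517 gene symbols of the tables. The genes were chosen with earlier results of these data known, so shares of all genes set beside them describe the list and are not independent support. By role they were 4 transcription factors (Irf1, Irf7, Irf9 and Stat2), 3 RNA sensors (Ddx58, Ifih1 and Dhx58), 21 further interferon effectors, 5 genes of ubiquitin, ISG15 or ADP-ribose modification, and 6 antigen presentation genes (Tap1, Psmb8, Psmb9, B2m, H2-K1 and H2-D1). The study set extended pluripotent stem (EPS) cells, a cultured state credited with contributing to both embryonic and extraembryonic tissue, beside embryonic stem (ES) cells, and altered YY1, a zinc finger transcription factor, in both. Per the labels all cells were of the C57BL/6 strain. ES cells were kept in 2i medium and EPS cells in LCDM medium, on feeders (inactivated fibroblasts of mouse embryos) or Matrigel, and the surface used for a given library is not stated.

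The 22 libraries, of 63 samples in the series, formed 10 groups. Untransduced ES cells and untransduced EPS cells had 3 libraries each. Every other group had 2 libraries. They were EPS cells with a control hairpin (EPS shCtrl), EPS cells with a hairpin against Yy1 (EPS shYy1), ES cells with a control overexpression construct (ES oeCtrl), ES cells with a Yy1 overexpression construct (ES oeYy1), and the same 4 lines on day 6 in a medium labelled F4H, which the labels do not spell out. The titles name the day 6 control constructs, while the genotype label of those libraries says only that they are controls, so the constructs are taken from the titles. Whether a line was 1 clone or a pool is not stated, nor whether replicates were separate cultures, so p-values reflect no more than the spread among these libraries. EPS shCtrl and ES oeCtrl differ in both cell state and control construct, which cannot be told apart. A commercial mRNA library kit is named for the day 6 libraries and for none of the undifferentiated ones, so stage and library preparation cannot be told apart either. In bulk libraries, fewer cells of a type and less RNA per cell cannot be told apart.

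Type I interferon binds its receptor (IFNAR1 and IFNAR2), whose kinases JAK1 and TYK2 phosphorylate STAT2. It joins IRF9 in the complex ISGF3, which binds the interferon-stimulated response element in promoters. Interferon gamma acts mainly through gamma-activated sites. The induced proteins sense, modify or degrade viral RNA, hold virus particles at the membrane, or load peptides cut by the immunoproteasome onto MHC class I for display to T cells. Mouse pluripotent stem cells are known for a weak interferon response and for low MHC class I, both of which increase as cells differentiate.

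Promoter stretches are shown for 5 members described below that carry the response element, the site through which type I interferon acts. Of the 39 members, 30 had a promoter window in RefSeq (build GRCm38.p6), which runs from 250 bases before to 50 bases after a start. The element was searched as GAAA, any 2 bases, GAAA on either strand, so overlapping copies count separately. It was found in 12 of the 30 members and in 3.99% of 27025 genes with a window, while a gamma-activated site (TTCNNNGAA) was found in 26.7% of the 30 and in 9.55% of all. The letters AAGATGGC, an element bound by YY1, were in 0 of the 30 windows and in 3.19% of all. The windows of Oasl2, Xaf1 and Lgals3bp, which were among the members of smallest p on day 6, held no response element, and Rtp4 and Usp18 had no window. A match describes letters only. Each stretch below is read 5′ to 3′ on the strand of its gene, and the capitals mark the response elements. They belong to Isg15 (chr4:156200855-156200916, minus strand, 3 overlapping copies), Ifit1 (chr19:34640765-34640833, plus strand, 2 copies), Bst2 (chr8:71537567-71537622, minus strand, 2 overlapping copies), Stat2 (chr10:128270256-128270305, plus strand) and B2m (chr2:122147528-122147577, plus strand).
Isg15: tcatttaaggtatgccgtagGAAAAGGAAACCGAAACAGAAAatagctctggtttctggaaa
Ifit1: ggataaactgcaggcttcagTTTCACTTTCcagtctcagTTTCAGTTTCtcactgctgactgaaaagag
Bst2: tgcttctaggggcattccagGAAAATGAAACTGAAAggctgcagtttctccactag
Stat2: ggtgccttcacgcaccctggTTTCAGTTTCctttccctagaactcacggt
B2m: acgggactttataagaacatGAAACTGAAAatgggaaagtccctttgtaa

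Tap1, a subunit of the peptide transporter, and Psmb9, an immunoproteasome subunit, start at opposite ends of the stretch chr17:34187331-34187555. It is shown on the plus strand, which is the strand of Tap1, because both genes read away from it. None of the 3 motifs was found in its 225 bases.
Tap1 and Psmb9: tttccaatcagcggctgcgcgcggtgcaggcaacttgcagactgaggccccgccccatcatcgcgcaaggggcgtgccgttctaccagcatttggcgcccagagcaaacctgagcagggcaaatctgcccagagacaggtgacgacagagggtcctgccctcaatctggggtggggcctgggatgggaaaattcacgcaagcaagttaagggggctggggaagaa

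Gene counts came to 13672061 to 20782348 per library, and levels are given as CPM, the count of a gene scaled to a common total of gene counts. A count of 0 allows a level of up to 0.144 to 0.219 CPM by library, taking 3 counts as the limit, which covers counting error only. The targeted gene was read first. Yy1 stood at 134 and 134 CPM in EPS shCtrl and at 70.5 and 70.5 in EPS shYy1, a log2 fold change of -0.99 ± 0.11 (SE; edgeR's adjusted p = 4.43e-06). In ES oeYy1 it stood at 934 and 941 CPM against 120 and 124 in ES oeCtrl (2.94 ± 0.11, adjusted p = 4.91e-11). On day 6 it was 331 and 324 CPM in ES oeYy1 against 120 and 126 in ES oeCtrl (1.38 ± 0.05, adjusted p = 9.22e-33). On day 6 the EPS libraries labelled shYy1 had 114 and 110 CPM against 129 and 123 in EPS shCtrl, with a log2 fold change of -0.03 ± 0.05 and an adjusted p of 0.567. Yy1 was therefore not lower by the test in the day 6 libraries labelled shYy1, and that wording is kept throughout. The fitted fold changes use trimmed mean (TMM) scaling, which moves them against ratios of plain CPM by at most 0.15 on the log2 scale in comparisons of 2 groups. In the day 6 hairpin comparison it moved them by 0.13. The plain CPM of Yy1 was lower in both libraries labelled shYy1 than in both EPS shCtrl libraries, so the small fitted value depends on the scaling.

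Before the results, some libraries stood apart. The third EPS library was the highest of its group for 36 of the 39 members (92.3%), against 55.0% of 16440 genes tested. The third ES library was the highest for 25 members (64.1%), against 45.2% of genes. Both were also the highest of their group for 21 of 22 fibroblast markers. Counts of calls that rest on these groups are given with and without these libraries, and single values without them where they moved by over 1.5 times. The pair of undifferentiated EPS shCtrl libraries also differed more than other pairs, with a chi-square per gene of 20.2 against 1.89 to 7.10 in the other groups of 2. Without either of them, members called in comparisons with EPS shCtrl were 8 and 8 against shYy1 (9 with both), 25 and 25 against untransduced EPS (27), 15 and 13 against ES oeCtrl (17), and 32 and 36 between the stages (35). Shares of all genes are set beside counts of the main fits only. A changed count under another fit is therefore not a result about the members.

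**Figure D1:**
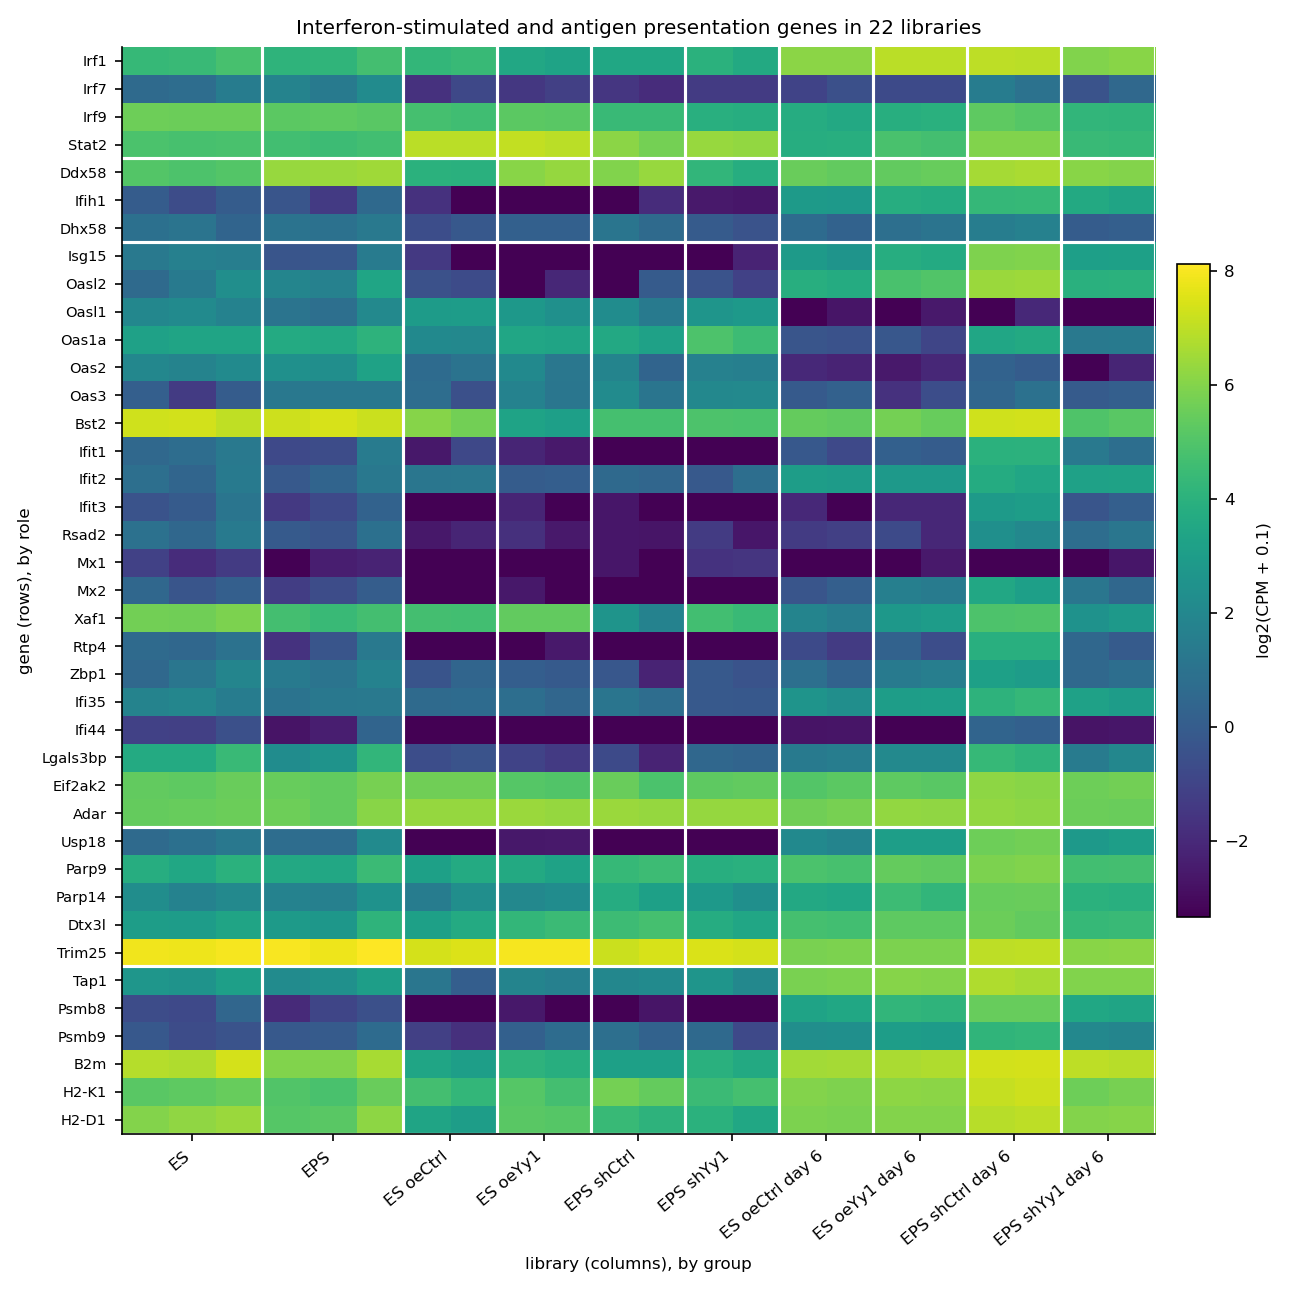
Levels of the 39 genes (rows, by role: transcription factors, RNA sensors, interferon effectors, ubiquitin, ISG15 and ADP-ribose modification, antigen presentation) in 22 libraries (columns, by group), as log2(CPM + 0.1). The pair of EPS shCtrl libraries on day 6 is the brightest for most rows, and many rows are darkest in the 8 undifferentiated hairpin and overexpression libraries.

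The 39 genes together had 962 to 1084 CPM in the ES libraries, and the EPS libraries had 870 to 1124 CPM. In the undifferentiated transduced lines it was 637 to 656 CPM in EPS shCtrl, 588 to 629 in EPS shYy1, 666 to 669 in ES oeCtrl and 803 to 832 in ES oeYy1. On day 6 it was 735 to 743 CPM in ES oeCtrl, 825 to 841 in EPS labelled shYy1, 959 to 972 in ES oeYy1 and 1880 to 1899 in EPS shCtrl. The day 6 EPS shCtrl pair thus lay above all 20 other libraries. Members with 0 counts numbered 0 to 1 per library in untransduced cells, 6 to 9 in transduced undifferentiated cells and 1 to 3 on day 6. Single genes did not all follow the order of the sum, as the heat map of the 39 genes shows.

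**Figure D2:**
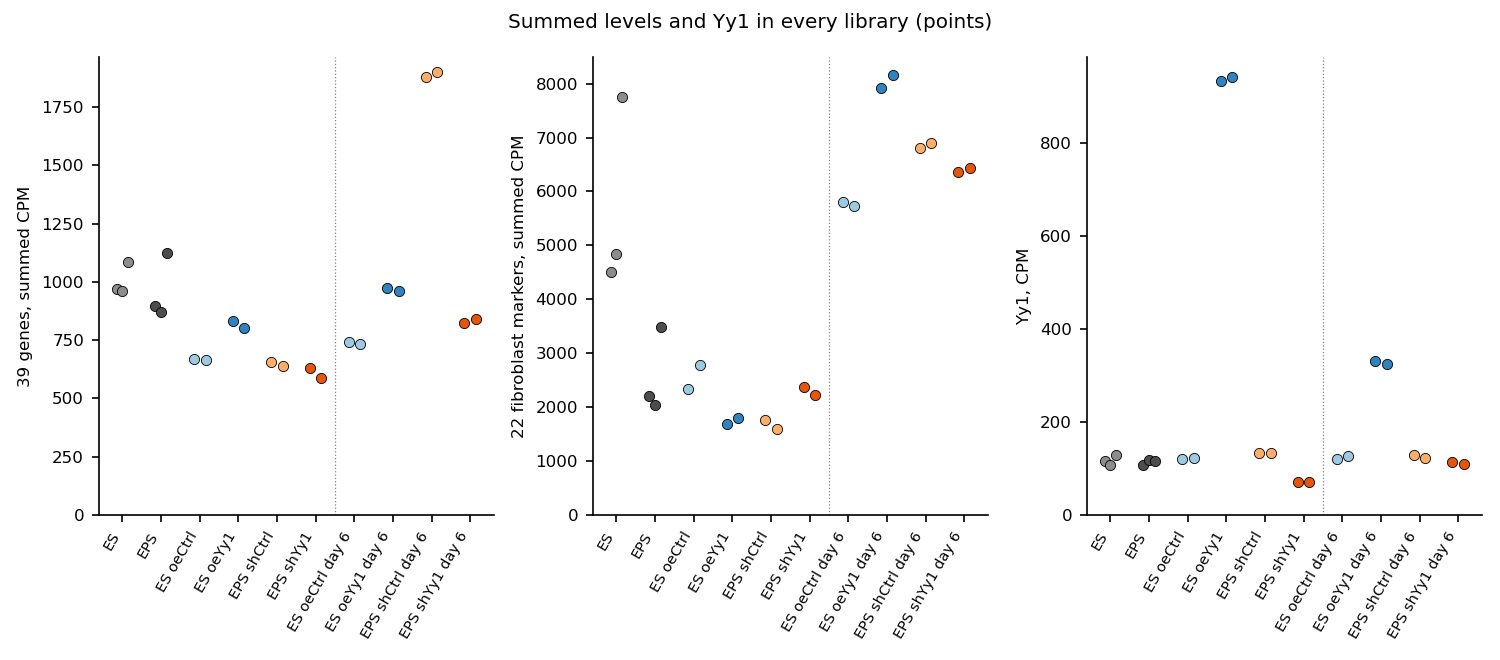
Summed CPM of the 39 genes, summed CPM of 22 fibroblast markers, and Yy1 CPM, with 1 point per library and a dotted line between undifferentiated and day 6 groups. The EPS shCtrl libraries on day 6 have the highest sums of the 39 genes (1880 to 1899 CPM), while their fibroblast sums (6801 to 6894 CPM) lie inside the day 6 range. A sum of markers is not a measure of fibroblast content.

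Isg15 encodes a ubiquitin-like protein that is joined to other proteins. Its level was 2.40, 3.12 and 2.92 CPM in ES and 0.70, 0.770 and 2.58 CPM in EPS. It had 0 counts in both EPS shCtrl and both ES oeYy1 libraries, 0 and 0.120 CPM in EPS shYy1, and 0.275 and 0 in ES oeCtrl. On day 6 it was 7.48 and 6.07 CPM in ES oeCtrl, 13.9 and 12.5 in ES oeYy1, 8.66 and 9.12 in EPS labelled shYy1, and 61.1 and 62.9 in EPS shCtrl. Every day 6 library was above every undifferentiated one, and the EPS shCtrl pair was above all others.

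Ifit1 encodes a protein that binds the ends of foreign RNA. Its level was 1.38, 1.59 and 2.39 CPM in ES and 0.484, 0.529 and 2.58 CPM in EPS. It was 0 in the 4 undifferentiated EPS hairpin libraries, 0.0688 and 0.458 CPM in ES oeCtrl, and 0.131 and 0.0705 CPM in ES oeYy1. On day 6 it was 0.803 and 0.471 CPM in ES oeCtrl, 1.05 and 0.905 in ES oeYy1, 2.39 and 1.69 in EPS labelled shYy1, and 15.7 and 16.3 in EPS shCtrl. Outside the day 6 EPS shCtrl pair, no library reached 3 CPM.

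Irf7 encodes the factor that amplifies interferon gene transcription. It was 1.44, 1.59 and 2.74 CPM in ES, 3.34, 2.50 and 4.52 CPM in EPS, and between 0.176 and 0.458 CPM in the 8 transduced undifferentiated libraries. On day 6 it was 0.401 and 0.589 CPM in ES oeCtrl, 0.488 and 0.487 in ES oeYy1, 0.662 and 1.37 in EPS labelled shYy1, and 2.72 and 1.91 in EPS shCtrl. Its order therefore differed from that of Isg15, with untransduced EPS cells among the highest.

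Stat2, the ISGF3 subunit used by type I interferon, followed another order again. It was 29.8, 28.1 and 28.8 CPM in ES and 25.1, 23 and 25.3 CPM in EPS. In the transduced lines it was 70.4 and 53.9 CPM in EPS shCtrl, 82.7 and 76.3 in EPS shYy1, 125 and 123 in ES oeCtrl, and 136 and 122 in ES oeYy1. By day 6 it was 13.9 and 14.6 CPM in ES oeCtrl, 28.2 and 26.0 in ES oeYy1, 21.3 and 20.2 in EPS labelled shYy1, and 62.4 and 61.9 in EPS shCtrl. The highest libraries were the undifferentiated ES lines with a construct, not the day 6 cells.

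B2m encodes the light chain of MHC class I. It was 117, 109 and 168 CPM in ES, 61.3, 61.9 and 100 CPM in EPS, and between 8.56 and 16.8 CPM in the 8 transduced undifferentiated libraries. By day 6 it was 93.3 and 97.4 CPM in ES oeCtrl, 102 and 109 in ES oeYy1, 126 and 119 in EPS labelled shYy1, and 164 and 170 in EPS shCtrl. The transduced undifferentiated libraries were the lowest, with no overlap with any other group.

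H2-K1 encodes a heavy chain of MHC class I. It was 36.2, 38.9 and 44.3 CPM in ES and 32.3, 28.4 and 45.1 CPM in EPS. Among transduced lines it was 52.9 and 43.5 CPM in EPS shCtrl, 22.1 and 27 in EPS shYy1, 25.7 and 18.8 in ES oeCtrl, and 34.2 and 25.9 in ES oeYy1. By day 6 it was 63.4 and 60.5 CPM in ES oeCtrl, 72.9 and 71.3 in ES oeYy1, 48.0 and 55.7 in EPS labelled shYy1, and 139 and 151 in EPS shCtrl. H2-K1, H2-D1 and the H2-Q genes are near-identical in parts, so reads can be split or lost between them and their values are uncertain.

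**Figure D3:**
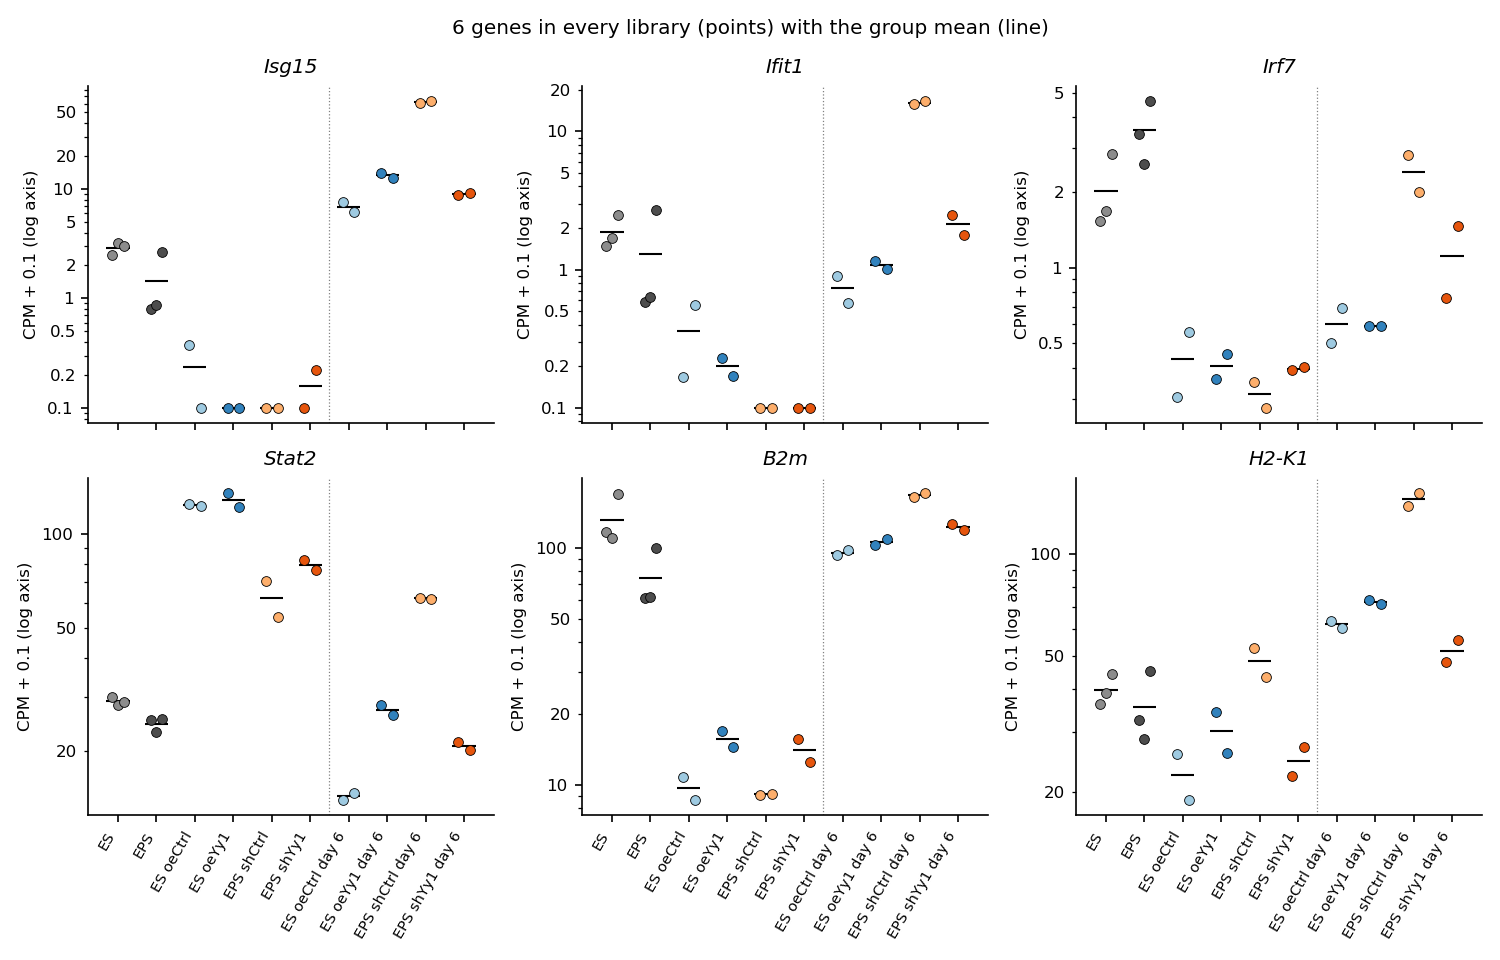
CPM + 0.1 on a log axis for Isg15, Ifit1, Irf7, Stat2, B2m and H2-K1, with 1 point per library, a line at each group mean, and a dotted line between undifferentiated and day 6 groups. The EPS shCtrl libraries on day 6 are the highest of the day 6 libraries in all 6 panels, whereas Stat2 is highest in the undifferentiated ES lines with a construct.

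On day 6 the EPS libraries labelled shYy1 had lower levels of most of these genes than EPS shCtrl. A gene was called at an adjusted p under 0.05 from edgeR's quasi-likelihood test, with Benjamini-Hochberg adjustment over all genes tested. Of 37 members tested, 35 were called lower, against 30.4% of 15927 genes called lower, and 0 were called higher, against 30.9% of genes. All 37 fitted log2 fold changes were below 0, so 0 would be called higher at an unadjusted p under 0.05 too, and DESeq2 called 34 lower and 0 higher. The median log2 fold change of the members was -1.43, beside -0.01 over all genes. Called members at least 2-fold lower numbered 23, and the share of all genes at that size was not counted. The members not called were Ifit2 (-0.20 ± 0.13, adjusted p = 0.205) and Oas3 (-0.59 ± 0.40, adjusted p = 0.205). Oasl1 and Mx1 were too low to test on day 6, and Mx1, Ifi44 and Psmb8 were too low to test among the undifferentiated groups alone.

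The effectors had the lowest median of the 5 roles, at -2.31. Rtp4, an interferon-induced transmembrane protein, was 14.8 and 14.9 CPM in EPS shCtrl and 1.32 and 0.874 CPM in the libraries labelled shYy1, with no overlap (-3.59 ± 0.22, adjusted p = 2.04e-21). Ifit1 fell by 2.81 ± 0.19 on the log2 scale (adjusted p = 6.84e-20) and Isg15 by 2.67 ± 0.10 (adjusted p = 3.16e-32). Oasl2, a protein like the oligoadenylate synthetases that activate RNase L, was 84.6 and 86.4 CPM against 15.4 and 16.0 (-2.31 ± 0.08, adjusted p = 4.41e-33). Bst2, the protein tetherin that holds budding viruses at the membrane, was 159 and 162 CPM against 31.1 and 36.7 (-2.12 ± 0.07, adjusted p = 3.24e-30). Xaf1, an interferon-inducible protein that promotes apoptosis, was 30.6 and 31.5 CPM against 5.55 and 7.12 (-2.17 ± 0.12, adjusted p = 7.34e-23). In all 6 genes each library labelled shYy1 was below each EPS shCtrl library. Lgals3bp, a secreted galectin-binding glycoprotein, was lower by -2.42 ± 0.16. Of the 19 effectors tested 17 were lower.

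The other effectors called lower moved by unequal amounts. Ifit3 had 141 and 162 counts in EPS shCtrl and 14 and 16 in the libraries labelled shYy1 (-3.06 ± 0.28). The GTPase gene Mx2 (-2.38 ± 0.22), Zbp1, a sensor of Z-form nucleic acid (-2.35 ± 0.23), Oas1a (-2.13 ± 0.20) and Rsad2, the antiviral enzyme viperin (-1.14 ± 0.28), were lower by over 1 on the log2 scale. Ifi35 (-0.94 ± 0.13), Adar (-0.58 ± 0.06) and Eif2ak2 (-0.36 ± 0.07) were lower by less. Oas2 (21 and 18 counts against 0 and 2) and Ifi44 (23 and 21 counts against 1 and 1) were called on few counts. Mx1 had 0 to 6 counts in the 22 libraries and was tested in no comparison, and RefSeq lists Mx1 and Mx2 as transcribed pseudogenes in this build. The Oas and Ifit families hold close copies, so counts of their members are uncertain.

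All 4 transcription factors were lower, by less. Stat2 had a log2 fold change of -1.45 ± 0.08 (adjusted p = 6.69e-24). Irf1, which acts in both interferon pathways, was 125 and 122 CPM against 62.3 and 67.9 (-0.79 ± 0.05, adjusted p = 1.50e-19). Irf9, the DNA-binding subunit of ISGF3, was 38.6 and 34.6 CPM against 18.7 and 17.9 (-0.86 ± 0.09, adjusted p = 2.82e-12). The call of Irf7 (-1.08 ± 0.37, adjusted p = 0.0103) was lost with DESeq2 (adjusted p = 0.090) and without either first replicate (adjusted p of 0.160 without that of EPS shCtrl and 0.262 without that of shYy1). The 3 RNA sensors were also lower, at -0.47 ± 0.06 for Ddx58, which encodes RIG-I, -0.71 ± 0.12 for Ifih1, which encodes MDA5, and -1.51 ± 0.32 for their relative Dhx58.

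The 5 genes of ISG15, ubiquitin and ADP-ribose modification were lower. Usp18, the protease that removes ISG15, was 49.1 and 51.8 CPM in EPS shCtrl and 7.13 and 8.56 in the libraries labelled shYy1, with no overlap (-2.56 ± 0.11, adjusted p = 1.07e-29). Parp14, an ADP-ribosyltransferase, fell by 1.43 ± 0.09 on the log2 scale, Parp9 by 1.11 ± 0.08, its ubiquitin ligase partner Dtx3l by 0.93 ± 0.08, and Trim25, a ligase that acts on RIG-I, by 0.77 ± 0.05. Parp9 and Dtx3l overlap in the RefSeq annotation, and the strand setting of the counting is not given in the sources used here, so reads in the overlap cannot be assigned with certainty.

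All 6 antigen presentation genes were lower, and their fold changes differed from each other. Psmb9 (18.2 and 19.3 CPM against 3.92 and 3.62) fell by 2.17 ± 0.15 on the log2 scale, and Psmb8 (44.1 and 43.5 CPM against 11.3 and 10.3), another immunoproteasome subunit, by 1.88 ± 0.10 (adjusted p = 4.17e-25). The heavy chain H2-K1 fell by 1.35 ± 0.06 (adjusted p = 7.27e-27) and H2-D1 by 0.78 ± 0.06. Tap1 (108 and 99.2 CPM against 61.6 and 62.3) fell by 0.61 ± 0.06 and B2m by 0.31 ± 0.05 (adjusted p = 1.81e-07). B2m did not overlap between the groups despite its small difference.

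Markers of other cells in this comparison were as follows. The 22 fibroblast markers summed to 6368 to 6434 CPM in the libraries labelled shYy1 and 6801 to 6894 CPM in EPS shCtrl, with 8 of 20 tested higher and 8 lower. The 10 leukocyte markers summed to 20.0 to 21.7 CPM and 18.6 to 19.4 CPM, and Ptprc, which marks all leukocytes, was at 0 in both EPS shCtrl libraries. Of these markers Csf1r was called higher in the libraries labelled shYy1 (2.24 ± 0.22, adjusted p = 2.09e-13), and Cd68 was not called. The 6 endothelial and epithelial markers summed to 6260 to 6340 CPM and 3196 to 3213 CPM, with Krt8 and Krt18 higher and Pecam1 and Epcam lower in the libraries labelled shYy1. Of the 10 pluripotency markers, which summed to 438 to 451 CPM and 586 to 591 CPM, 5 were called higher, such as Dppa5a (3.06 ± 0.21), and 2 lower. The part of these cells in the result was not tested.

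**Figure D4:**
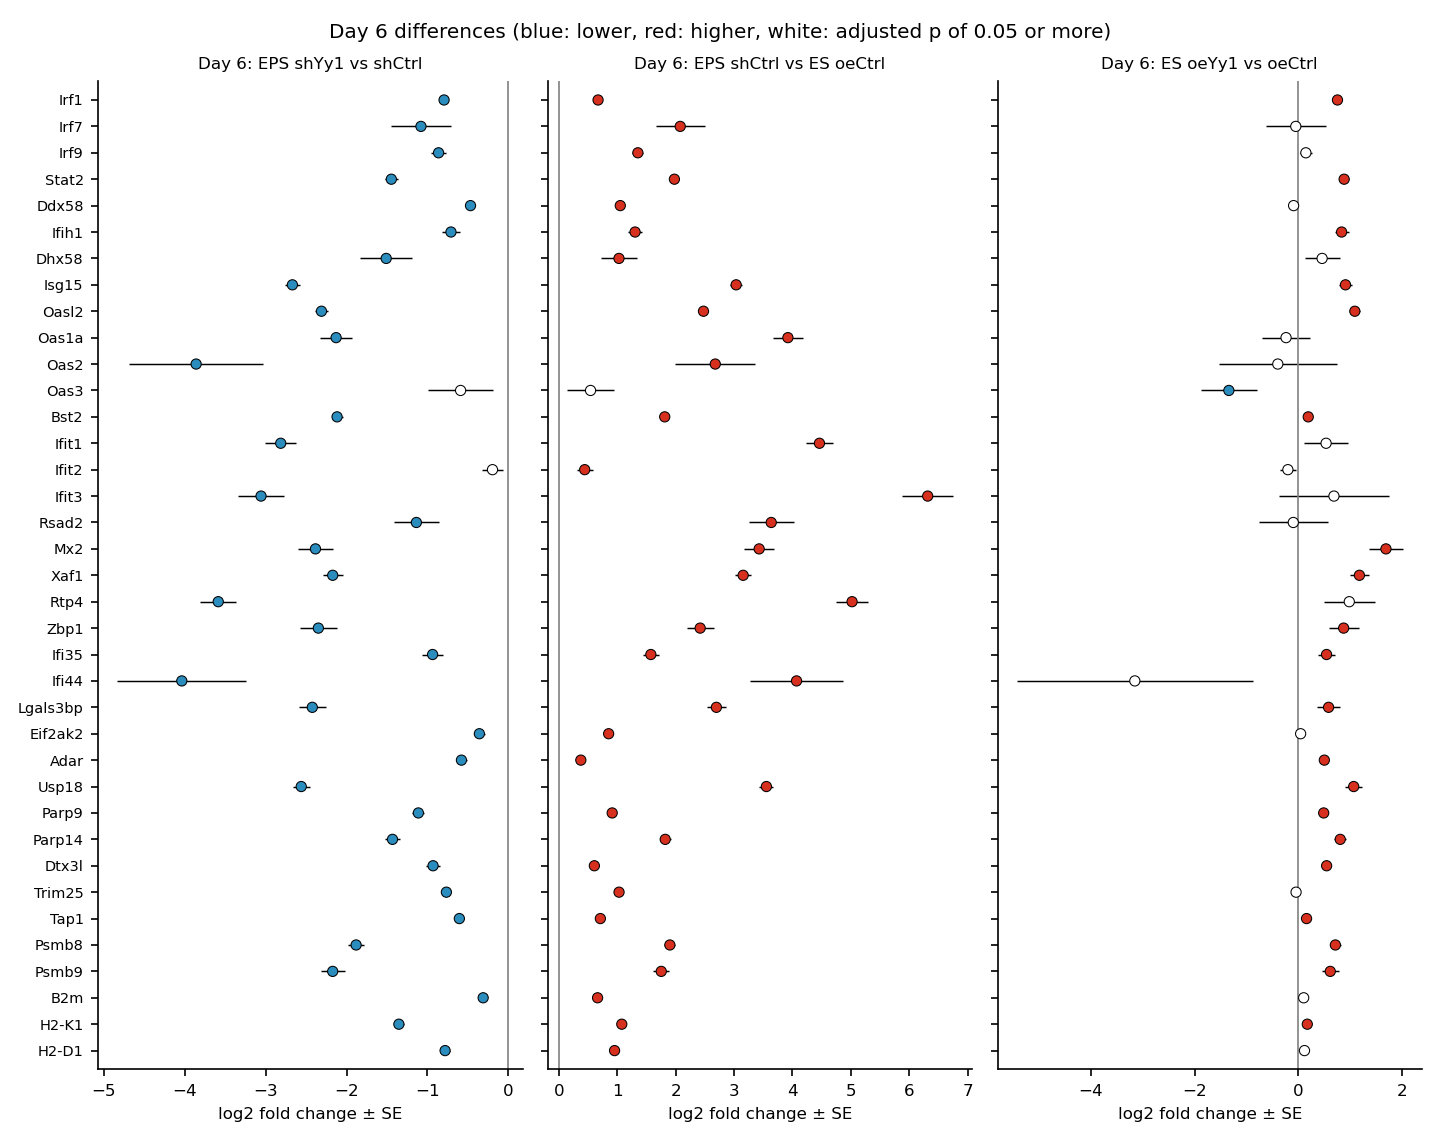
Log2 fold change ± SE from the fit for the 37 members tested in 3 day 6 comparisons, red where called higher, blue where called lower, white where the adjusted p was 0.05 or more. Nearly all points lie below 0 for EPS labelled shYy1 against shCtrl and above 0 for EPS shCtrl against ES oeCtrl, with 20 of 37 called higher for ES oeYy1 against oeCtrl; values of genes near 0 counts (Ifi44, Oas2, Ifit3) depend on the fit.

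Compared with ES oeCtrl on day 6, EPS shCtrl was called higher for 36 of 37 members, against 31.6% of genes called higher, and lower for 0, against 32.4% of genes. The median log2 fold change was 1.81 over the members and 0.02 over all genes. Called members at least 2-fold higher numbered 27, again without a count over all genes. All 37 fitted values were above 0, so 0 would be called lower at an unadjusted p under 0.05, and DESeq2 called the same numbers (36 higher and 0 lower). Oas3 was not called (0.54 ± 0.40, adjusted p = 0.236), and Ifit2 lost its call without the first EPS shCtrl library (adjusted p = 0.149). This comparison shares the EPS shCtrl libraries with the preceding one, so the pair are not independent.

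Rtp4 was 0.502 and 0.295 CPM in ES oeCtrl against 14.8 and 14.9 in EPS shCtrl, with no overlap (5.02 ± 0.27, adjusted p = 2.10e-24). Oas1a, an oligoadenylate synthetase, was 0.702 and 0.648 CPM against 10.8 and 12.2 (3.92 ± 0.25, adjusted p = 7.52e-21), again without overlap. Ifit1 was higher by 4.46 ± 0.23 on the log2 scale, Usp18 by 3.55 ± 0.12, Xaf1 by 3.15 ± 0.14 and Isg15 by 3.04 ± 0.10. Oasl2 (2.48 ± 0.08), Bst2 (1.81 ± 0.07), Parp14 (1.82 ± 0.10) and Trim25 (1.03 ± 0.06) were among the 12 of smallest p. Stat2 was higher by 1.98 ± 0.08 (adjusted p = 3.66e-29), Irf7 by 2.08 ± 0.42, Irf9 by 1.35 ± 0.10 and Irf1 by 0.67 ± 0.05. All 6 antigen presentation genes were higher, from 0.66 ± 0.05 for B2m to 1.90 ± 0.10 for Psmb8, with 1.08 ± 0.06 for H2-K1. Both EPS shCtrl libraries lay above all 6 other day 6 libraries for 35 of the 39 members, the exceptions being Oasl1, Irf1, Mx1 and Adar, against 32.1% of the 15927 genes tested on day 6. For 23 members the pair lay above all 20 other libraries, a count that has no share over all genes beside it. The fibroblast markers summed to 5736 to 5804 CPM in ES oeCtrl, and the 10 pluripotency markers to 688 to 700 CPM against 586 to 591 in EPS shCtrl. Of these 10, 9 were called lower in EPS shCtrl, such as Dppa5a (-5.47 ± 0.16) and Esrrb (-4.30 ± 0.22), and Lin28a was called higher. The endothelial and epithelial markers summed to 5554 to 5596 CPM in ES oeCtrl against 3196 to 3213 in EPS shCtrl, with Epcam higher and Cdh5, Krt8 and Krt18 lower. What these markers contribute was not tested.

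Overexpression of Yy1 in day 6 ES cells went with higher levels of 20 of 37 members and a lower level of 1, against 20.3% of genes called higher, 21.6% called lower and 41.9% called in either direction. The median log2 fold change was 0.51 over the members and 0.00 over all genes. Called members at least 2-fold higher numbered 4, also without a count over all genes. Xaf1 was 3.46 and 2.77 CPM in ES oeCtrl and 6.83 and 7.86 CPM in ES oeYy1 (1.18 ± 0.18, adjusted p = 2.90e-07). Oasl2 was 14.5 and 13.1 CPM against 28.4 and 32.5 (1.09 ± 0.09, adjusted p = 8.09e-15). Usp18 was 4.16 and 3.54 CPM against 8.36 and 8.42 (1.07 ± 0.16, adjusted p = 1.84e-07). None of the 3 genes overlapped between the groups.

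The called members of smallest p also included Irf1 (0.76 ± 0.05), Stat2 (0.89 ± 0.10), the RNA editing enzyme Adar (0.51 ± 0.06), Parp14 (0.81 ± 0.11), Isg15 (0.91 ± 0.13), Dtx3l (0.55 ± 0.08), Psmb8 (0.72 ± 0.11), Parp9 (0.49 ± 0.08) and Ifih1 (0.84 ± 0.14), with adjusted p from 8.89e-18 for Irf1 to 7.75e-07 for Ifih1. Ifit1 (0.54 ± 0.42), Irf7 (-0.05 ± 0.58) and B2m (0.11 ± 0.05) were not called, with adjusted p of 0.316, 0.959 and 0.103. H2-K1 was called at 0.18 ± 0.06 (adjusted p = 0.0223). The member called lower was Oas3 (0.853 and 1.06 CPM against 0.209 and 0.557, adjusted p = 0.0430). DESeq2 called 16 members higher and 0 lower, and the calls it did not make were those of Oas3, Bst2, Lgals3bp, Tap1 and H2-K1. Fibroblast markers summed to 7914 to 8165 CPM in ES oeYy1, above the 5736 to 5804 CPM of ES oeCtrl, with 7 of 20 called higher and 8 lower. The endothelial and epithelial markers summed to 3173 to 3351 CPM against 5554 to 5596, with 5 of 6 called lower, Krt8 and Krt18 among them. Of the 10 pluripotency markers 7 were called lower, such as Dppa5a (-2.47 ± 0.12) and Esrrb (-1.78 ± 0.17), and Lin28a was called higher. Their part in the result was not tested.

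From the undifferentiated stage to day 6, 30 of 38 members rose and 5 fell in EPS shCtrl, against 37.5% of 17207 genes called higher and 36.6% called lower (74.1% in either direction). In EPS shYy1 27 rose and 8 fell, against 37.9% and 37.4% of genes (75.4% in either direction). In ES oeCtrl 21 rose and 10 fell, against 37.1% and 35.9% (73.0%), and in ES oeYy1 22 rose and 10 fell, against 35.7% and 36.9% (72.7%). Of the 38 members, 19 (50.0%) rose in all 4 lines, against 21.6% of 17207 genes, and they included all 6 antigen presentation genes, Isg15, Usp18, Ifih1 and Irf1. Oasl1, Oas2, Trim25 and Adar fell in all 4 lines, 10.5% of the members against 19.4% of genes.

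In EPS shCtrl, Isg15 went from 0 counts in both libraries to a mean of 62.0 CPM, at least 339-fold higher when 0 is set to 3 counts per library. Usp18 went from 0 counts in both libraries to 49.1 and 51.8 CPM, at least 276-fold higher, and Ifit1 from 0 to 15.7 and 16.3 CPM, at least 87.7-fold higher. The same floor gave at least 53.9-fold for Psmb8 in EPS shYy1, where both undifferentiated libraries had 0 counts and the day 6 libraries 11.3 and 10.3 CPM. In ES oeCtrl, Psmb8 also had 0 counts before and 9.98 and 11.3 CPM on day 6, at least 52.8-fold higher. Ifih1 had 0 counts in ES oeYy1 and 13.8 and 13.2 CPM on day 6, at least 66.1-fold higher. These genes were thus near or below detection in the undifferentiated transduced lines.

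Antigen presentation genes with counts at both stages rose in every line. Tap1 was 3.84 and 4.35 CPM in EPS shCtrl and 108 and 99.2 on day 6 (4.51 ± 0.16, adjusted p = 2.17e-16), and in ES oeCtrl 2.13 and 0.980 CPM and then 55.9 and 58.3 (5.21 ± 0.19, adjusted p = 4.69e-16). B2m rose by 4.07 ± 0.11 on the log2 scale in EPS shCtrl, 3.20 ± 0.11 in EPS shYy1, 3.32 ± 0.11 in ES oeCtrl and 2.69 ± 0.11 in ES oeYy1. H2-K1 rose by 1.12 ± 0.14 to 1.49 ± 0.14 in the 4 lines. Oasl2 was 0.658 and 0.361 CPM in EPS shYy1 and 15.4 and 16.0 CPM on day 6 (5.01 ± 0.39), and in ES oeCtrl 0.619 and 0.523 CPM and then 14.5 and 13.1 (4.59 ± 0.39). In each of these the day 6 libraries lay above the undifferentiated ones.

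Further members of smallest p are given line by line. In EPS shCtrl they included Irf1 (3.31 ± 0.11), Bst2 (2.45 ± 0.11), H2-D1 (2.54 ± 0.12), Lgals3bp (5.79 ± 0.34), Oasl2 (7.39 ± 0.34) and Ifi35 (3.19 ± 0.21). In EPS shYy1 Tap1 (3.68 ± 0.16), Irf1 (2.27 ± 0.10), H2-D1 (2.34 ± 0.12) and Ifi35 (3.50 ± 0.26) rose, and Oas1a (-3.42 ± 0.20) and Trim25 (-1.26 ± 0.09) fell. In ES oeCtrl H2-D1 (2.63 ± 0.13), Irf1 (1.80 ± 0.10), Ifih1 (6.09 ± 0.47) and Isg15 (5.59 ± 0.43) rose, and Trim25 (-1.62 ± 0.09) fell. In ES oeYy1 Irf1 (3.44 ± 0.11), Tap1 (4.26 ± 0.17), Psmb8 (8.69 ± 0.40), Bst2 (2.32 ± 0.13) and Usp18 (6.73 ± 0.40) rose, and Trim25 (-2.18 ± 0.09) and Oas1a (-4.20 ± 0.28) fell.

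Stat2 went the other way in 3 lines. It fell by 1.88 ± 0.10 on the log2 scale in EPS shYy1, 3.12 ± 0.10 in ES oeCtrl and 2.32 ± 0.09 in ES oeYy1, and in EPS shCtrl it was not called (-0.13 ± 0.09, adjusted p = 0.181). Irf7 rose in EPS shCtrl (3.26 ± 0.54) and EPS shYy1 (1.77 ± 0.57) and was not called in the ES lines (adjusted p of 0.440 and 0.427). Xaf1 rose in EPS shCtrl (2.63 ± 0.18) and fell in EPS shYy1, ES oeCtrl and ES oeYy1 (-1.82 ± 0.17, -3.02 ± 0.19 and -2.58 ± 0.17). Fibroblast markers also moved with stage, from 1604 to 2780 CPM in the 8 undifferentiated libraries to 5736 to 8165 CPM on day 6, and 17 to 19 of 20 rose in each line. Their part in the result was not tested.

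In a test chosen after seeing the data, the day 6 change of EPS shCtrl was set against that of ES oeCtrl. It was higher for 20 of 38 members and lower for 2, against 22.8% of genes called higher, 25.9% called lower and 48.7% called in either direction. The differences were 2.98 ± 0.13 for Stat2 (adjusted p = 3.27e-13), 5.65 ± 0.26 for Xaf1, 2.97 ± 0.15 for Bst2 and 1.64 ± 0.16 for Irf9 on the log2 scale. Irf1 (1.5 ± 0.15), Trim25 (1.16 ± 0.13), Eif2ak2 (1.27 ± 0.16), Oas1a (2.57 ± 0.34), Lgals3bp (3.67 ± 0.61), Zbp1 (3.60 ± 0.64) and Ifit1 followed. Tap1, Psmb8, Psmb9, H2-K1 and H2-D1 were not called (adjusted p from 0.0571 to 0.918), and B2m was called at 0.75 ± 0.16. Ddx58 (-1.17 ± 0.20) and Dtx3l (-0.57 ± 0.21) were the members called lower.

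In undifferentiated EPS cells the Yy1 hairpin went with both rises and falls. Of 36 members tested 2 were higher and 7 lower, against 15.1% of genes called higher and 13.3% called lower. In either direction the shares were 25.0% of members and 28.5% of genes, and the median log2 fold change of the members was 0.01. Xaf1 was 5.92 and 3.29 CPM in shCtrl and 24.9 and 21.3 in shYy1, with no overlap (2.27 ± 0.19, adjusted p = 3.33e-07). Ddx58 was 62.6 and 81.3 CPM in shCtrl and 18.2 and 14.1 in shYy1, with no overlap in the other direction (-2.23 ± 0.16, adjusted p = 6.29e-08). Oas1a was 12 and 9.23 CPM against 30.1 and 23.1 (1.26 ± 0.19, adjusted p = 1.16e-04). The other members called were all lower, namely H2-K1 (-1.03 ± 0.19), Irf9 (-0.64 ± 0.13), Dtx3l (-1.11 ± 0.31), Ifi35 (-1.26 ± 0.36), Dhx58 (-1.26 ± 0.41) and Parp14 (-0.91 ± 0.32).

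Stat2 (0.30 ± 0.12, adjusted p = 0.0729) and B2m (0.56 ± 0.24, adjusted p = 0.0875) were not called, and Isg15 and Ifit1 had 0 to 0.120 CPM in these libraries. The count fell to 5 members, 2 higher and 3 lower, without the second EPS shYy1 library. A fit with the replicate number as a block called 15, of which 6 were higher, although these numbers pair nothing known. Fibroblast markers summed to 1604 to 1760 CPM in shCtrl and 2228 to 2366 in shYy1, with 6 of 21 higher. Their part in the result was not tested.

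In undifferentiated ES cells Yy1 overexpression went with 11 members higher and 3 lower of 36, against 14.8% of genes called higher and 17.1% called lower. In either direction the shares were 38.9% of members and 32.0% of genes. Bst2 was 66.7 and 52.1 CPM in oeCtrl and 9.88 and 8.6 in oeYy1 (-2.68 ± 0.17, adjusted p = 1.58e-08). Ddx58 was 15.7 and 15.2 CPM against 69.2 and 80.5 (2.27 ± 0.16, adjusted p = 5.32e-08). H2-D1 was 10.3 and 8.24 CPM against 37.2 and 34.2 (1.94 ± 0.28, adjusted p = 1.01e-04). None of the 3 overlapped between the groups.

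Oas1a (1.34 ± 0.21), Xaf1 (0.71 ± 0.17), Irf9 (0.52 ± 0.13), Trim25 (0.48 ± 0.12), Psmb9 (2.23 ± 0.62), B2m (0.69 ± 0.24), Dtx3l (0.91 ± 0.31), Tap1 (1.06 ± 0.39) and Oas3 (1.33 ± 0.50) were higher. Irf1 (-0.91 ± 0.20) and Eif2ak2, the RNA-activated kinase PKR (-0.59 ± 0.15), were lower. Antigen presentation thus held 4 of the 11 rises, of 5 such genes tested. H2-K1 (0.43 ± 0.19, adjusted p = 0.0997) and Stat2 (0.05 ± 0.12, adjusted p = 0.768) were not called, nor were Isg15, Ifit1 and Irf7, whose levels stayed under 0.5 CPM. The count fell to 9 without the second ES oeCtrl library and to 8 without the second ES oeYy1 library. Of 21 fibroblast markers tested 4 were higher and 1 lower, with sums of 2340 to 2780 CPM in oeCtrl and 1689 to 1798 in oeYy1. The marker called lower was Fn1 (-0.76 ± 0.19). The sum thus moved against most of the called markers and cannot be read as fibroblast content. Their part in the result was not tested.

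Whether each manipulation acted alike at both stages was tested by its change between stages. For the hairpin, 17 of 38 members were lower on day 6 relative to the undifferentiated difference and 1 higher, against 20.1% of genes called lower, 21.4% called higher and 41.5% called in either direction. The change was -4.44 ± 0.24 for Xaf1 (adjusted p = 3.24e-11), -2.21 ± 0.16 for Bst2, -1.75 ± 0.13 for Stat2 and -3.40 ± 0.26 for Oas1a on the log2 scale. Lgals3bp (-4.38 ± 0.52), Irf1 (-1.04 ± 0.15), Trim25 (-0.80 ± 0.13), B2m (-0.87 ± 0.16), Adar (-0.48 ± 0.10), Zbp1 (-3.05 ± 0.67) and Oas2 (-4.21 ± 0.98) were also lower. Ddx58 was the member called higher (1.76 ± 0.20), its log2 difference being -2.23 in undifferentiated cells and -0.47 on day 6. H2-K1 was not called (-0.33 ± 0.19, adjusted p = 0.170), with -1.03 and -1.35 at the 2 stages. Yy1 was not lower by the test in the day 6 libraries labelled shYy1, so the change between stages compares libraries by their labels.

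For overexpression, 7 of 38 members were higher and 8 lower, against 17.7% and 19.9% of genes (37.6% in either direction). Bst2 changed by 2.84 ± 0.17 (adjusted p = 1.56e-10), from lower in undifferentiated cells to slightly higher on day 6. Irf1 changed by 1.63 ± 0.15, also from lower to higher, and Stat2 by 0.80 ± 0.14. H2-D1 (-1.86 ± 0.17), Ddx58 (-2.40 ± 0.20), Tap1 (-0.94 ± 0.31) and B2m (-0.62 ± 0.16) changed downward. So did Trim25 (-0.56 ± 0.13), Oas3 (-2.71 ± 0.75) and Oas1a (-1.61 ± 0.47), while Adar (0.42 ± 0.10), Eif2ak2 (0.60 ± 0.16) and Oasl2 (4.00 ± 1.16) changed upward. Xaf1 was not called (0.44 ± 0.26, adjusted p = 0.198).

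Untransduced EPS and ES cells differed in 7 of 36 members, 4 higher and 3 lower in EPS, against 13.8% of genes called higher and 16.9% called lower. In either direction the shares were 19.4% of members and 30.6% of genes. Ddx58 was 33.6, 30.0 and 33.3 CPM in ES and 82.6, 84.5 and 89.3 CPM in EPS, with no overlap (1.47 ± 0.13, adjusted p = 2.49e-07). Xaf1 was 51.3, 49.5 and 57.7 CPM in ES and 25.8, 21.7 and 25.9 CPM in EPS, also without overlap (-1.05 ± 0.14, adjusted p = 2.21e-05). B2m was lower in EPS (-0.77 ± 0.16, adjusted p = 0.00209), each EPS library being below each ES library. Oas3 (1.71 ± 0.42), Oas1a (0.53 ± 0.16) and Irf7 (0.90 ± 0.31, adjusted p = 0.0386) were higher in EPS and H2-D1 (-0.60 ± 0.21) was lower.

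Isg15 (-1.04 ± 0.50, adjusted p = 0.129), Ifit1 (-0.56 ± 0.56, adjusted p = 0.484), Stat2 (-0.18 ± 0.10, adjusted p = 0.206) and H2-K1 (-0.12 ± 0.15, adjusted p = 0.598) were not called. The third EPS library, the highest for 36 of the 39 members, had Isg15 at 2.58 CPM against 0.70 and 0.770 in the others. Without it 10 members were called, 2 higher and 8 lower. Without the third library of both groups 9 were called, 3 higher and 6 lower, with the call of Oas1a lost. These counts have no share of all genes beside them. Isg15 was then lower in EPS (-1.81, adjusted p = 0.0158), and its adjusted p ran up to 0.345 when single libraries were left out. Ifit1 moved to -1.45 ± 0.57 without the third library of both groups and was still not called (adjusted p = 0.0616). Same-numbered ES and EPS libraries deviated together, and a fit with the replicate number as a block called 12 members, 6 higher and 6 lower. The Irf7 call was lost with DESeq2 (adjusted p = 0.0755) and in the fit of these libraries alone (adjusted p = 0.0591), and its adjusted p reached 0.148 when single libraries were left out. Fibroblast markers were lower in EPS for 14 of 21, with sums of 2033 to 3479 CPM against 4504 to 7743 CPM in ES, and the level of Col1a1 was 57.7 to 183 CPM against 657 to 1286 CPM. The contribution of such cells was not tested.

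Cells with a control construct had lower levels of most members than untransduced cells. In EPS shCtrl 23 of 36 members were lower and 4 higher, against 27.4% of genes called lower and 28.9% called higher (56.4% in either direction), with a median log2 fold change of -0.96. In ES oeCtrl 25 were lower and 3 higher, against 25.1% and 25.5% of genes (50.6% in either direction), with a median of -1.31. B2m fell by 3.16 ± 0.22 on the log2 scale in EPS shCtrl and by 3.82 ± 0.23 in ES oeCtrl (adjusted p = 1.28e-08 and 1.37e-08). Bst2 was 26.8 and 26.5 CPM in EPS shCtrl against 152, 173 and 149 CPM in EPS (-2.71 ± 0.15, adjusted p = 4.86e-10).

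Lgals3bp was 12.9, 12.8 and 21.8 CPM in ES and 0.550 and 0.654 CPM in ES oeCtrl (-4.75 ± 0.61). In EPS it was 4.68, 5.73 and 18.4 CPM, against 0.504 and 0.118 CPM in EPS shCtrl (-5.04 ± 0.68). H2-D1 was 64.4, 75.9 and 85.0 CPM in ES and 10.3 and 8.24 CPM in ES oeCtrl (-3.07 ± 0.27, adjusted p = 5.09e-07). The control lines lay below the untransduced cells in each of these genes. Isg15 had a mean of 1.35 CPM in EPS and 0 counts in EPS shCtrl, which makes it at least 7.39-fold lower, or at least 4.02-fold without the third EPS library. Usp18 was at least 13.8-fold lower, or at least 8.63-fold without it. Without the third library of both untransduced groups the value of Lgals3bp in EPS shCtrl was -4.24 ± 0.39. Irf7 was lower in both control lines, at -4.09 ± 0.50 in EPS shCtrl and -2.54 ± 0.48 in ES oeCtrl. Other members of smallest p in EPS shCtrl were Xaf1 (-2.56 ± 0.18), Irf9 (-0.95 ± 0.12), Trim25 (-0.79 ± 0.11), H2-D1 (-1.45 ± 0.25), Irf1 (-0.98 ± 0.19) and Rsad2 (-4.13 ± 0.79). In ES oeCtrl they were Bst2 (-1.40 ± 0.14), Irf9 (-0.92 ± 0.12), Ddx58 (-1.12 ± 0.15), Xaf1 (-1.10 ± 0.16), Oas1a (-1.31 ± 0.20), Tap1 (-2.21 ± 0.35) and Usp18, which had 0 counts there and was at least 9.17-fold lower.

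Stat2 went against the list, higher by 1.20 ± 0.11 in EPS shCtrl and by 2.05 ± 0.11 in ES oeCtrl (adjusted p = 1.51e-07 and 3.08e-09), and so did Adar (0.52 ± 0.13 and 0.77 ± 0.13). Parp14 (1.37, adjusted p = 7.12e-04) and Dtx3l (1.15, adjusted p = 0.00214) were also called higher in EPS shCtrl. Oasl1 was called higher in ES oeCtrl (0.96, adjusted p = 0.0119). H2-K1 was not called in EPS shCtrl (0.32 ± 0.17, adjusted p = 0.117) and was lower in ES oeCtrl (-0.89 ± 0.18). Without the third library of both untransduced groups 22 were lower and 7 higher in EPS shCtrl and 24 lower and 3 higher in ES oeCtrl. The calls lost were those of Oas1a in EPS shCtrl and Zbp1 in ES oeCtrl. Oasl1, Parp9 and H2-K1 (0.48 ± 0.15, adjusted p = 0.0103) gained a call in EPS shCtrl, all higher. In EPS shCtrl the fitted changes of 8 of the 27 called members moved by over 1.5 times, namely Isg15, Oasl2, Ifit1, Ifit3, Usp18, Ifih1, Rtp4 and Lgals3bp, and in ES oeCtrl that of Ifit3. Fibroblast markers moved with both results, 18 of 21 being lower in EPS shCtrl and 20 of 21 in ES oeCtrl, and Col1a1 was 0.529 to 0.756 CPM in EPS shCtrl and 0.894 to 1.5 CPM in ES oeCtrl. How much such cells contribute was not tested. Of the fibroblast markers, 1 had 0 counts in each untransduced library and 2 to 5 in each control library.

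Between the undifferentiated control lines, EPS shCtrl was higher than ES oeCtrl for 11 of 36 members and lower for 6, a share of 47.2% against 40.4% of genes (19.7% called higher and 20.7% called lower). Xaf1 was 5.92 and 3.29 CPM against 25.7 and 25.5 (-2.50 ± 0.19, adjusted p = 3.90e-08). Ddx58 was 62.6 and 81.3 CPM against 15.7 and 15.2 (2.21 ± 0.16, adjusted p = 2.23e-08). Parp14 was 13.4 and 9.0 CPM against 2.68 and 4.97 (1.51 ± 0.33, adjusted p = 0.00164). The groups did not overlap in any of the 3. Oas1a (1.34 ± 0.21), H2-K1 (1.10 ± 0.19), Parp9 (0.98 ± 0.26), Psmb9 (2.33 ± 0.61), Dtx3l (1.17 ± 0.31) and Tap1 (1.39 ± 0.38) were also higher, and Stat2 (-1.02 ± 0.12), Bst2 (-1.17 ± 0.15) and Irf1 (-0.84 ± 0.20) lower. B2m (-0.10 ± 0.24, adjusted p = 0.764), Irf7 (adjusted p = 0.484), Isg15 (adjusted p = 0.157) and Ifit1 (adjusted p = 0.0668) were not called. Without the second ES oeCtrl library 11 members were called, 7 higher and 4 lower.

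The steps above and beside the 39 genes were read from lists of the same pathway, also chosen with earlier results of these data known. The 20 interferon genes summed to at most 0.312 CPM, with 17 to 20 of them at 0 counts in every library, and Ifnb1 had 0 counts in all 22. None of the 20 could be tested. On day 6 the receptor gene Ifnar1 was 81.6 and 85.1 CPM in EPS shCtrl and 80.4 to 90.0 CPM in the other libraries. It was called higher in the libraries labelled shYy1 than in EPS shCtrl (0.19 ± 0.06, adjusted p = 0.00262) and lower in EPS shCtrl than in ES oeCtrl (-0.24 ± 0.06, adjusted p = 1.79e-04). The kinase genes Jak1 (0.41 ± 0.05) and Jak2 (0.59 ± 0.07) were also higher in the libraries labelled shYy1. Tyk2 was lower there (-0.29 ± 0.08, adjusted p = 0.00146). Jak1 and Jak2 were lower in EPS shCtrl than in ES oeCtrl (-0.16 ± 0.05 and -0.90 ± 0.07). TMM scaling moved fold changes by 0.13 in the first comparison and by -0.15 in the second. The small Ifnar1 values and the Jak1 value of -0.16 therefore depend on it. Ifnar2 was 20.0 and 17.2 CPM in EPS shCtrl against 8.72 to 12.1 CPM in the others, and it was lower in the libraries labelled shYy1 (-0.64 ± 0.12, adjusted p = 6.42e-06).

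Of 39 other interferon-stimulated genes tested on day 6, 34 were lower and 3 higher in the libraries labelled shYy1, with a median log2 fold change of -1.32. Of all genes 30.4% were called lower and 30.9% higher in this comparison. Those higher were Cxcl10, a chemokine, Pml and Znfx1. Cxcl10 was 1.62 and 1.66 CPM in EPS shCtrl and 6.01 and 4.37 CPM in the libraries labelled shYy1 (1.81 ± 0.23, adjusted p = 4.80e-10). Ifi27, an interferon-induced protein, was 13.6 and 14.9 CPM against 0.866 and 1.06 (-3.76 ± 0.22, adjusted p = 4.04e-22). EPS shCtrl was higher than ES oeCtrl for 33 of the 39 and lower for 2, against 31.6% and 32.4% of genes. ES oeYy1 was higher than oeCtrl for 21 and lower for 4, against 20.3% and 21.6% of genes.

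Of 17 other genes of the MHC class I pathway, 14 were lower and 3 higher in the day 6 libraries labelled shYy1, against 30.4% and 30.9% of genes. Tap2, the partner of Tap1, was 29.0 and 32.1 CPM in EPS shCtrl and 8.15 and 6.93 CPM in the libraries labelled shYy1 (-1.88 ± 0.12, adjusted p = 3.06e-20). Psmb10, the third immunoproteasome subunit, fell by 1.06 ± 0.09 on the log2 scale, and Nlrc5, the transactivator of MHC class I genes, by 1.36 ± 0.26. The 3 genes that were higher, Calr, Canx and Pdia3, encode chaperones of the endoplasmic reticulum that also serve other proteins. EPS shCtrl was higher than ES oeCtrl for 13 of the 17 and lower for these 3 chaperones, against 31.6% and 32.4% of genes. Of 7 subunits of the constitutive proteasome 4 were lower and 0 higher in the libraries labelled shYy1, with a median log2 fold change of -0.20, and of 5 genes of MHC class II 1 was higher and 1 lower. The same 30.4% of genes lower and 30.9% higher stand beside these counts of few genes.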

How the data were processed

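RNA-seq of total RNA extracted with TRIzol gave one deposited table of raw gene counts per library for 22 libraries. Per the submitters' processing notes, CASAVA, Bowtie2 2.3.2, mm10 and GRCm38.p6 were used in the series, with no role given, and the counter of the RNA reads is not given in the sources used here. Lines that name no gene were left out of library sizes. Reads in no feature came to 5.61 to 8.62% of the gene counts and their summary lines together, ambiguous reads to 3.70 to 5.32% and reads with several alignments to 5.45 to 6.66%. Gene counts per library were 13672061 to 20782348, and intervals and floors cover counting error only.

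The members and gene lists were chosen with earlier results of these data known. The deposited counts went into edgeR 4.0.16 (R 4.3.3; TMM factors, its default filter on low counts, robust quasi-likelihood F-tests, Benjamini-Hochberg adjustment over all genes tested). The 14 undifferentiated libraries were fitted together (16440 genes), the 8 day 6 libraries together (15927 genes), and the 16 libraries of the transduced lines together for changes between stages (17207 genes). The fits were tested on simulated data. In each comparison the called members of smallest p (at most 12) were named. Values per library were given for Isg15, Ifit1, Irf7, Stat2, B2m and H2-K1 and for the 3 called members of largest change at a mean of 5 CPM or more. Same-numbered ES and EPS libraries deviated together, with correlations of their deviations of 0.125, 0.172 and 0.375. The numbers come from the titles. Alternatives were other size factors (RLE), no count filter, DESeq2 1.42.0, a replicate block, the compared libraries alone, and leaving out each library. No pair of replicates agreed within sampling noise. 1 gene of the pathway is not reported here.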

Additional observations from a re-analysis of the deposited data

Results flagged for a closer look

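The hairpin difference in EPS cells changed between stages by the test of the change itself for 18 members, 47.4% of those tested against 41.5% of all genes. Of these, 17 were lower and 1 was higher on day 6 relative to undifferentiated cells, while 20.1% of all genes were called lower and 21.4% higher. Yy1 was not lower by the test in the day 6 libraries labelled shYy1. The overexpression difference in ES cells changed for 15 members, 7 of them upward and 8 downward, 39.5% of those tested against 37.6% of all genes. Counted in either direction, both shares are near those of all genes, although the hairpin calls were mostly downward. In a comparison chosen after seeing the data, the day 6 change of EPS shCtrl differed from that of ES oeCtrl for 22 members, 20 of them upward and 2 downward, 57.9% of those tested against 48.7% of all genes.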

How the results depend on the processing

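Single genes were followed through the alternatives where they were called or were among the 6 members read in every comparison, 415 of 593 tests of members, and none of these reversed its direction. With the replicate number as a block, 12 members were called in EPS against ES instead of 7, and 15 in EPS shYy1 against shCtrl instead of 9. In no other comparison did the block move the count of members called by over 1.5 times. Outside EPS against ES the same-numbered libraries share only a number. When single libraries were left out, members called ranged from 5 to 8 in EPS shYy1 against shCtrl, from 8 to 11 in ES oeYy1 against oeCtrl (main count 14) and from 11 to 15 in EPS shCtrl against ES oeCtrl (main count 17). All genes called ranged from 2571 to 4853 in the first of these (main count 4682) and from 3065 to 3614 in the second (main count 5255), where fitting the compared libraries alone gave 8149. The cause was not tested, beyond that these fits hold fewer libraries. Members called ranged from 34 to 35 in day 6 EPS labelled shYy1 against shCtrl, from 35 to 36 in day 6 EPS shCtrl against ES oeCtrl, and from 16 to 20 in day 6 ES oeYy1 against oeCtrl. Over these 415, counted once per setting, 172 results lost and 9 gained their call when a library was left out, and 1805 kept their side of the threshold. Under the other settings 36 lost it, 14 gained it and 2012 kept their side, so calls gained by members outside the 415 appear only in the counts of members called. Depth limits genes near 0 counts, whose fitted fold changes are not given where a group had none.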
